A study of Mus musculus with 8 samples.

Results

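*Pank1*, *Pfkp*, *Slc22a5*, *Sgpl1*, *Pnp* and *Pde4d* are 6 mouse genes of coenzyme A, glucose, carnitine, sphingolipid, purine and cyclic AMP metabolism. They were chosen by the H3K27ac peak lists described here, as genes that a listed peak overlapped or approached to within 10 kb in at least 1 list, out of 21896 protein-coding genes in the reference. The presence of H3K27ac peaks at these genes is therefore a description, with no test. The cells were brown preadipocytes (BAC) taken at birth from interscapular brown adipose tissue of mice with floxed *Cars2* (flox/flox) and made immortal by SV40 large T antigen. They were infected with an empty pMSCV retrovirus (Vec, cell line BAC-V, genotype label WT) or with the same retrovirus carrying Cre (cell line BAC-Cre, genotype label CarS2-KO). Both groups thus share the floxed alleles, large T and a retroviral insertion, and differ in Cre and in the deletion of *Cars2*, the mitochondrial cysteinyl-tRNA synthetase that also forms cysteine persulfide. Cells were induced with IBMX, indomethacin, dexamethasone, insulin and T3 and then kept in insulin and T3, and 50000 differentiated cells per sample entered Cut & Tag, in which an antibody guides a transposase to tag nearby DNA. There were 2 libraries for each of H3K27ac Vec, H3K27ac Cre, EBF2 Vec and EBF2 Cre, and the comparison asks whether loss of *Cars2* altered chromatin occupied by EBF2 or marked by H3K27ac. The labels do not say that replicates came from separate cultures, so p-values measure only the spread between these libraries, which may be technical.

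H3K27ac, acetylation of lysine on the tail of histone H3, marks active promoters and enhancers, and around an active start site it usually flanks the point where transcription begins. EBF2 is a transcription factor needed for the brown adipocyte fate. The 6 genes stand at separate steps of fuel handling. *Pank1* encodes a pantothenate kinase, which opens coenzyme A synthesis, and *Slc22a5* encodes OCTN2, the plasma membrane carrier that brings in the carnitine needed to move long-chain fatty acids into mitochondria. *Pfkp* encodes the platelet-type phosphofructokinase of glycolysis, *Sgpl1* the lyase that irreversibly breaks down sphingosine phosphate, *Pnp* a purine nucleoside phosphorylase of purine salvage, and *Pde4d* a phosphodiesterase that hydrolyses cyclic AMP, the messenger through which noradrenaline activates brown fat.

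The promoter sequences that the H3K27ac peaks touch are shown first, because the genes differ in where the peak lies against the start site. Each is the RefSeq window on GRCm38.p6 from 250 bases before to 50 bases after the annotated start, 5′ to 3′ on the strand of the gene, with CpG dinucleotides in capitals. The *Slc22a5* window, chr11:53891654-53891953 on the minus strand, lay entirely inside a peak in 3 of the 4 H3K27ac lists. The *Sgpl1* window, chr10:61147635-61147934 on the minus strand, shared its last 36 bases with the Vec replicate 1 peak.
Slc22a5: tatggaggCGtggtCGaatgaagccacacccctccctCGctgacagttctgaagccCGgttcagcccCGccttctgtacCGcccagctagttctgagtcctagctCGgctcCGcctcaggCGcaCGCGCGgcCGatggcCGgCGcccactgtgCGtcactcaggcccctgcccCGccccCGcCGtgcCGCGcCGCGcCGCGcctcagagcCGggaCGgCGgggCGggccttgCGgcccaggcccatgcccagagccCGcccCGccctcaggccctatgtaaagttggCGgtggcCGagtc
Sgpl1: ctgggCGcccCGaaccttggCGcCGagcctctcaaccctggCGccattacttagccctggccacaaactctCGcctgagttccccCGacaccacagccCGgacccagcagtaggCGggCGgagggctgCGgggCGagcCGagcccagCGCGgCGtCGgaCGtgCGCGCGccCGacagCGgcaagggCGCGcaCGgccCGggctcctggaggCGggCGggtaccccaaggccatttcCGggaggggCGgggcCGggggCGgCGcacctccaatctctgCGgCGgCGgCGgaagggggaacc

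*Pank1* has 2 annotated starts among the promoter windows used, 1538 bp apart, and its peak lay between them, so both windows are shown. The gene itself extends to position 34883423, upstream of both, and any start there was not examined. Start 1 is at position 34879455 (window chr19:34879406-34879705) and start 2 at 34877917 (window chr19:34877868-34878167), both on the minus strand. The peak reached 53 bases into the window of start 2 and did not reach that of start 1. The window of the long noncoding RNA *Gm32703* within *Pde4d*, chr13:109440962-109441261 on the minus strand, is added because a *Pde4d* peak covered it whole.
Pank1 start 1: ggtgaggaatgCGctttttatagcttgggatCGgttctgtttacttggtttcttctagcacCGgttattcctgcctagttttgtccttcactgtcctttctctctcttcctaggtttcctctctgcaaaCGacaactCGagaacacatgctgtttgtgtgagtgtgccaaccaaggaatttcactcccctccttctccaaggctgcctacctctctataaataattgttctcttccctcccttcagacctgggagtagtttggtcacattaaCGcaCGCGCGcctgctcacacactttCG
Pank1 start 2: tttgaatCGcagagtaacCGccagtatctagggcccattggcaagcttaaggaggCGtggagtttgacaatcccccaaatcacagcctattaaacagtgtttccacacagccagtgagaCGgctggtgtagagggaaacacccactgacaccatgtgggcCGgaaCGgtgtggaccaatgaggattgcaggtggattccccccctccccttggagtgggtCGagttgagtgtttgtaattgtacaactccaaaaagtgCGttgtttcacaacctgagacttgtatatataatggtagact
Gm32703 start 1: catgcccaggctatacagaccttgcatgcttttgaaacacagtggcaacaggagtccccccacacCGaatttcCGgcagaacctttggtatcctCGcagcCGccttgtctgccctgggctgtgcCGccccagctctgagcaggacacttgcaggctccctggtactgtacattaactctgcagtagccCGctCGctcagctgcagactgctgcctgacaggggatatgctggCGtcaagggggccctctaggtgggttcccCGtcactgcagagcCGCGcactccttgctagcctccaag

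The *Slc22a5* and *Sgpl1* windows were rich in CpG, and those of *Pank1* were not. Over 21262 promoter windows of 17491 protein-coding genes the median was 13 CpG, with quartiles of 4 and 24, and the median GC content was 56.3%. *Sgpl1* held 38 CpG and 75.3% GC, more CpG than 93.5% of the windows, and *Slc22a5* held 34 CpG and 72.7% GC, more than 89.8%. *Pfkp* held 21 CpG, above 66.4% of windows, although its peak lay far from its start. *Pank1* held 10 CpG at start 1 and 8 at start 2, *Pnp* 12 and *Pde4d* 2, each below the median. The GC box GGGCGG, searched on both strands, occurred 5 times in the *Slc22a5* window, 4 times in each of *Sgpl1* and *Pfkp*, and once in *Pnp*, against at least 1 match in 46.2% of all windows. The palindromic core CCCNNGGG of the EBF motif, present in 15.6% of windows, and the palindromic cyclic AMP response element TGACGTCA, present in 2.23%, matched in none of the 7 windows of the 6 genes. No match says only that these letters are not in these windows.

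**Figure D1:**
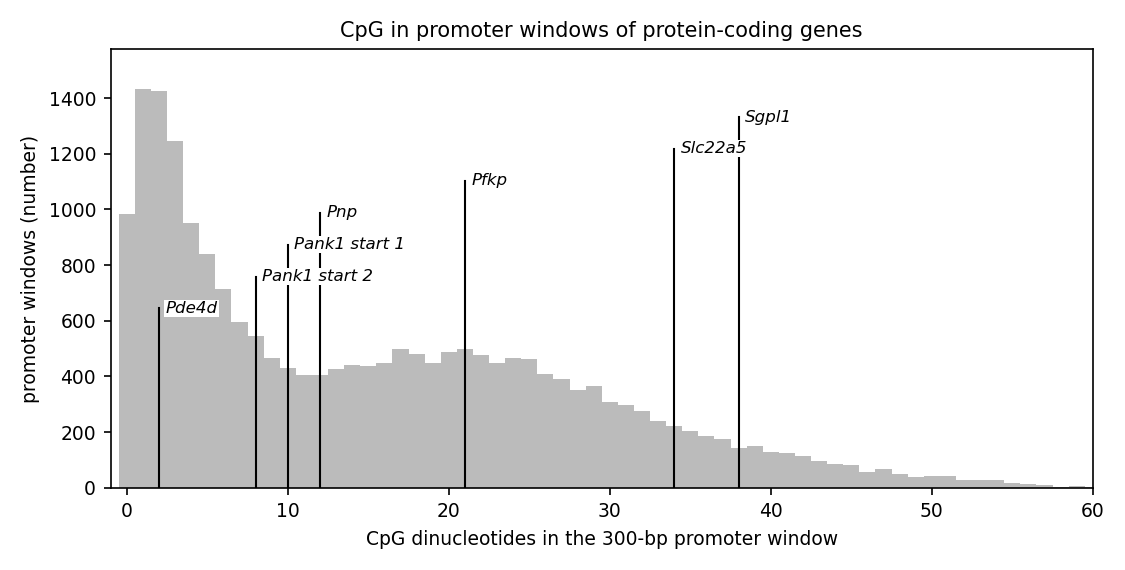
Number of CpG dinucleotides (x axis) in 300-bp promoter windows, with the number of windows on the y axis, for 21262 windows of protein-coding genes (grey bars) and the 7 windows of the 6 genes (black lines, whose heights only carry the labels). *Slc22a5* with 34 and *Sgpl1* with 38 CpG lie above the upper quartile of 24, and *Pde4d* with 2 lies below the lower quartile of 4.

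The lists themselves set the frame for what follows. The H3K27ac lists held 836 and 646 peaks in Vec and 673 and 902 in Cre, covering 104 to 115 Mb each, and the EBF2 lists held 533 to 724 peaks covering 81.2 to 109 Mb. Read counts are not part of the lists, so depth is not known. Background coverage was recovered from fold and p-value, as a low percentile over the peaks of a list. It was 18.8 in H3K27ac Vec replicate 1 against 9.3 to 9.83 in the other H3K27ac lists. In EBF2 Vec replicate 2 it was 1.39 against 7.38 to 8.76 in the other EBF2 lists. Peaks of 2 kb or less numbered 270, 98, 149 and 384 in H3K27ac Vec replicates 1 and 2 and Cre replicates 1 and 2. In the list of EBF2 Cre replicate 1 the peaks are named Cars2AKO, which does not match its cell line label, and the label was followed. *Cars2*, the targeted gene, had 0 peaks within 10 kb in all 8 lists, which does not check the deletion, since a peak list does not report the deleted sequence. The paper reports EBF2 at the *Cars2* promoter in differentiated brown adipocytes by Cut & Tag, with ChIP-qPCR and a luciferase reporter beside it. It does not say whether that track came from these libraries, and why no peak was listed here was not tested. None of 10 brown adipocyte and 7 general adipocyte marker genes had a peak of either antibody within 10 kb, and of 37 markers of 6 cell classes only *Ly6a*, a marker of preadipocytes, had one, in all 4 H3K27ac lists, through regions 45.7 to 98.1 kb wide that began 4.7 to 6.68 kb from the gene. Of all protein-coding genes, 5.6% to 7.19% held an H3K27ac peak in a list and 3.85% to 5.17% an EBF2 peak. The counts of so few markers do not bear out the label. The share to expect for active markers was not established, so they are not read against the label either. The paper reports EBF2 binding at *Ucp1* and *Cidec* by Cut & Tag in such cells, and neither marker had a listed peak. Absence from a list is therefore not read here as absence of the mark or of EBF2. In these bulk libraries, fewer cells carrying a mark and less mark per cell cannot be told apart.

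Of the 6 genes, 4 had an H3K27ac peak in Vec replicate 1, 1 in Vec replicate 2, 3 in Cre replicate 1 and 4 in Cre replicate 2. Vec lists averaged 2.5 ± 2.12 genes and Cre lists 3.5 ± 0.707 (SD, n = 2), so the groups overlapped, and without Vec replicate 2 the difference of 1.0 turned to −0.5. Over all 21896 protein-coding genes, 6.93% and 5.6% had such a peak in the Vec lists and 5.8% and 7.19% in the Cre lists, and 8.65% had one in any of the 4, the criterion by which the 6 were chosen. Vec replicate 2, with the fewest genes at 1 of 6, was also the list with the fewest peaks of 2 kb or less, and the part of that in the counts was not tested. None of the 6 genes was held by both Vec lists without any Cre list, a pattern of 0.178% of genes, or by both Cre lists without any Vec list, found for 0.1%.

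**Figure D2:**
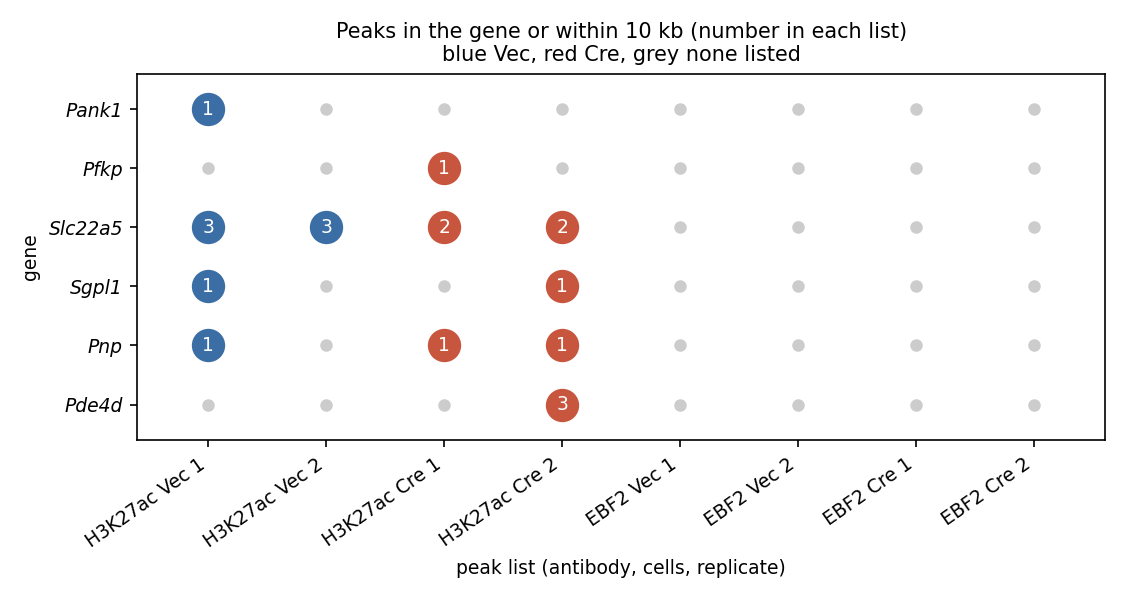
Number of listed peaks that overlap each gene or lie within 10 kb (rows, the 6 genes) in each of the 8 lists (columns, antibody, cells and replicate). Large circles carry the number of peaks, blue for Vec and red for Cre, and small grey dots mark lists with none. *Slc22a5* has peaks in all 4 H3K27ac lists, and no gene has a peak in any EBF2 list.

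EBF2 was listed at none of the 6 genes in any of the 4 EBF2 lists, so leaving out the list with the doubtful peak names changed nothing. The count was 0 of 6 in both Vec and both Cre libraries, so a test between the groups would carry no information, and the genes were chosen with these lists known. Among all protein-coding genes, 5.12% and 3.85% had an EBF2 peak within 10 kb in Vec and 5.17% and 4.95% in Cre, so that 0 of 6 is near what these percentages give for 6 genes. The nearest EBF2 peak to *Pde4d* was 8.3 to 8.35 Mb away in the 4 lists, and to *Sgpl1* 2.87 to 16.6 Mb. *Pank1* had its nearest EBF2 peak at 0.207, 1.09, 0.204 and 1.04 Mb in Vec replicates 1 and 2 and Cre replicates 1 and 2, and *Pfkp* at 0.116, 6.1, 0.119 and 6.09 Mb. For both genes, replicate 1 of each group was nearer than replicate 2, so the groups overlapped. For *Pnp* the distances were 0.632, 1.92, 0.63 and 0.635 Mb. *Slc22a5* alone had an EBF2 peak within 50 kb, in Vec replicate 1 only.

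The 6 genes were held by 6 different combinations of the H3K27ac lists. *Slc22a5* had peaks in all 4, as did 1089 protein-coding genes (4.97%), 32 of which had no EBF2 peak within 10 kb in any list. *Pnp* had peaks in Vec replicate 1 and both Cre lists, a combination of 54 genes (0.247%). *Sgpl1* had them in Vec replicate 1 and Cre replicate 2, as did 94 genes (0.429%). *Pank1* was held by Vec replicate 1 alone (168 genes, 0.767%), *Pfkp* by Cre replicate 1 alone (36 genes, 0.164%) and *Pde4d* by Cre replicate 2 alone (274 genes, 1.25%). In all there were 20 peaks at the 6 genes, of which 9 were 2 kb or less, 4 were between 2 and 10 kb and 7 were wider than 10 kb. Their folds over the background of the caller were 1.38 to 2.35. Ranked by score, which is −log10 of the q-value times 10, each exceeded 38.9% to 59.0% of the peaks of its own list, and 11 of the 20 lay below their list's median score.

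*Slc22a5*, the carnitine carrier (gene ID 20520, chr11:53864542-53891796, minus strand, 27.3 kb), held 10 of the 20 peaks, in 3 blocks. Inside the gene, downstream of the start, was a wide peak in every list. It spanned 53874276-53883767 (9.49 kb, fold 1.69, −log10 q 2.36) in Vec replicate 1 and 53871267-53883849 (12.6 kb, fold 1.95, −log10 q 1.99) in Vec replicate 2. In Cre replicate 1 it spanned 53873857-53884880 (11024 bp, fold 2.0, −log10 q 1.81), and in Cre replicate 2 it ran on across the start, 53872290-53892093 (19.8 kb, fold 2.21, −log10 q 3.25). The peak of Vec replicate 1 lay wholly within that of each of the other 3 lists, so 9.49 kb was shared by all. Together, peaks covered 37.4% and 48.9% of the gene in the Vec lists and 40.4% and 71.6% in the Cre lists, and the groups overlapped.

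The *Slc22a5* start, at position 53891703, was marked differently from list to list. In Vec replicate 1 a separate peak of 1136 bp ran from −523 to +612 bp relative to the start (fold 1.52, −log10 q 3.02). In Vec replicate 2 a peak of 1092 bp ran from −446 to +645 bp (fold 1.65, −log10 q 2.04). These peaks shared 1059 bp, 93.2% of the first and 97.0% of the second. Their centres lay 44.5 and 99.5 bp downstream of the start, against medians of 61.5 and 74 bp over the 158 and 29 peaks of 2 kb or less that were centred within 3 kb of a start in those lists. In Cre replicate 2 the start lay inside the 19.8-kb peak, whose upstream edge was at −390 bp. In Cre replicate 1 no peak covered it: the start fell in an unlisted stretch of 12.1 kb, with the nearest peak edges 6.82 kb downstream and 5.24 kb upstream. The start was thus covered in both Vec lists and in 1 of 2 Cre lists, and the Cre replicates differed from each other. Of the 149 peaks of 2 kb or less in Cre replicate 1, 6 had a fold at or below 1.52 and 27 at or below 1.65. The lowest fold there was 1.47, and whether the mark at the start was lower in Cre replicate 1 was not tested. Among 17491 genes with an annotated start, 5.76% and 4.8% had a start inside a peak in the Vec lists and 4.81% and 5.77% in the Cre lists, and of the 6 genes *Slc22a5* was the only such gene in the 3 lists. When only peaks of 10 kb or less were kept, *Slc22a5* was held by both Vec lists and by no Cre list, as were 0.123% of protein-coding genes, because the Cre peaks in the gene were wider than that limit.

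The third block at *Slc22a5* began 5.07 and 5.11 kb upstream of the gene in Vec and 5.14 and 4.42 kb upstream in Cre, the farthest from their gene of the 20 peaks. It was 53.5 kb wide in Vec replicate 1 (53896870-53950346, fold 1.97), 51.4 kb in Vec replicate 2 (53896907-53948269, fold 2.13), 51.6 kb in Cre replicate 1 (53896938-53948586, fold 2.11) and 52.6 kb in Cre replicate 2 (53896220-53948850, fold 2.35). Between any pair of lists at least 96.0% of each block was shared, and the starts differed by at most 718 bp, so no difference between groups was apparent. The block contains the whole pseudogene *Gm12220*, named after the positions were seen, and reaches toward *Slc22a21*, which encodes OCTN3, a carnitine carrier of the same family (gene ID 56517, 53949954-53980333). It overlapped *Slc22a21* by 393 bp in Vec replicate 1 and ended 1.69, 1.37 and 1.1 kb short of it in the other lists, so its edge was nearer to *Slc22a21* than to *Slc22a5* in all 4. The EBF2 list of Vec replicate 1 had 2 peaks within the same block, at 53920695-53921867 (1173 bp, fold 2.27), 28.9 kb from *Slc22a5* and the nearest EBF2 peak beyond the 10 kb limit, and at 53944167-53948281 (4.12 kb), 1.67 kb from *Slc22a21*. The other 3 EBF2 lists had none nearer to *Slc22a5* than 4.81 Mb. No EBF2 peak of this region was therefore found in both Vec replicates. The lowest fold among EBF2 peaks of 2 kb or less in Vec replicate 2 was 2.68, above the 2.27 of the 1173-bp peak. Its absence from that list does not show that EBF2 was lower there.

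**Figure D3:**
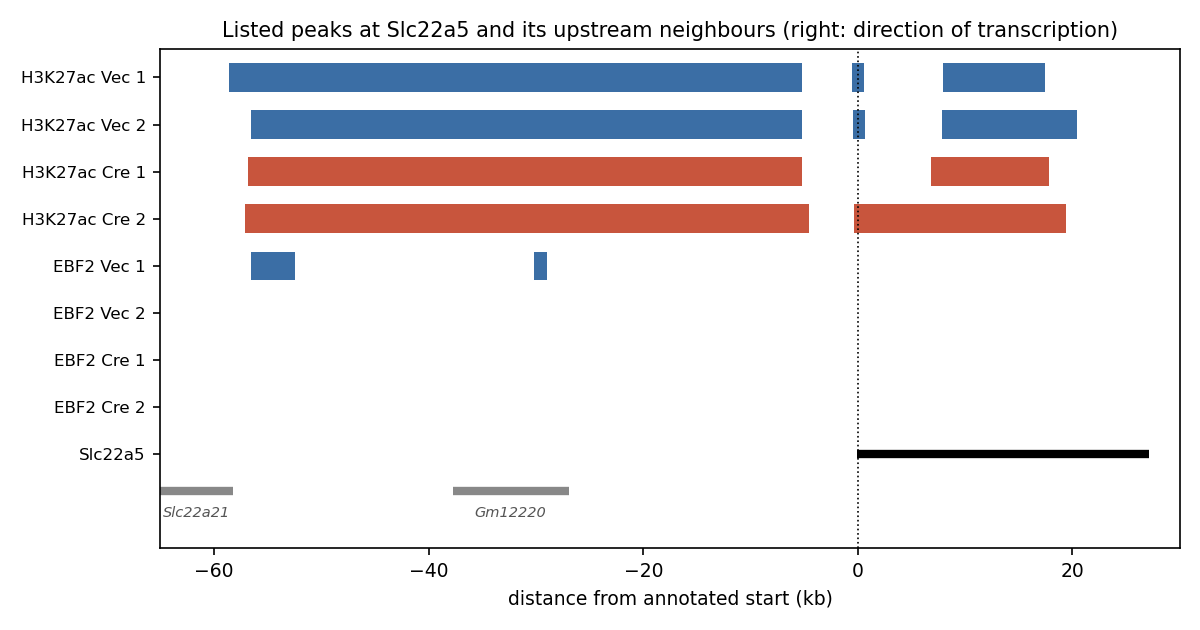
Peaks of all 8 lists around *Slc22a5*, with distance from its annotated start in kb on the x axis, transcription to the right and 1 row per list (blue Vec, red Cre). The black bar is *Slc22a5*, grey bars are *Slc22a21* (cut off at the left edge) and *Gm12220*, and the dotted line is the start. The short peaks at the start are separate in both Vec lists, are absent from Cre replicate 1, and give way in Cre replicate 2 to a peak of 19.8 kb.

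*Sgpl1*, the sphingosine phosphate lyase (gene ID 20397, chr10:61098642-61147684, minus strand, 49043 bp), carried a narrow peak directly downstream of its start in 1 list of each group. In Vec replicate 1 it spanned 61146533-61147670 (1138 bp, fold 1.44, −log10 q 4.56), from 14 to 1151 bp downstream of the start. In Cre replicate 2 it spanned 61146564-61147575 (1012 bp, fold 1.58, −log10 q 3.49), from 109 to 1120 bp downstream. The Cre peak lay wholly within the Vec peak and filled 88.9% of it. Neither peak contained the start, and their centres lay 582.5 and 614.5 bp downstream of it, farther than the upper quartile of the narrow peaks near starts in those lists (256 and 354 bp). Where it was missing, the nearest peak was 2.86 Mb away (Vec replicate 2) and 2.65 Mb away (Cre replicate 1). Presence thus followed neither group, with 1 of 2 lists in each.

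*Pank1*, the pantothenate kinase (gene ID 75735, chr19:34806935-34883423, minus strand, 76.5 kb), had 1 peak, in Vec replicate 1, at 34878115-34879155 (1041 bp, fold 1.38, −log10 q 2.65). It ran from 300 to 1340 bp downstream of start 1, and from −1238 to −198 bp relative to start 2. It held neither of these starts, and the gene extends upstream of both. The other lists had their nearest peak at 0.203 Mb (Vec replicate 2), 0.204 Mb (Cre replicate 1) and 0.199 Mb (Cre replicate 2). The single Vec list that held it was the one with the highest background coverage, 18.8.

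The narrow peaks of *Pank1* and *Sgpl1* in Vec replicate 1 had folds close to, or below, the lowest among the peaks of 2 kb or less in Vec replicate 2 and Cre replicate 1. None of the 98 peaks of 2 kb or less in Vec replicate 2, none of 149 in Cre replicate 1 and 5 of 384 in Cre replicate 2 had a fold as low as the 1.38 of *Pank1*. The lowest folds there were 1.4, 1.47 and 1.34, and the lowest in Vec replicate 1 was 1.26. For the *Sgpl1* peak of Vec replicate 1, at 1.44, the numbers at or below were 7 of 98, 0 of 149 and 19 of 384. The *Sgpl1* peak of Cre replicate 2, at 1.58, was above those lowest folds, with 15 of 98 at or below it in Vec replicate 2 and 16 of 149 in Cre replicate 1. No peak of 2 kb or less with a fold as low as that of *Pank1* was thus listed in 2 of the 3 lists that lacked it, and its absence there does not show that the mark was lower. Of the *Pde4d* peaks of Cre replicate 2, that of fold 2.12 stood well above those lowest folds and that of fold 1.54 was near them. The peak of fold 2.12 was at or above 97.8%, 87.8% and 90.6% of the peaks of 2 kb or less in Vec replicates 1 and 2 and Cre replicate 1, which lacked it, the peak of fold 1.82 was at or above 83.3%, 28.6% and 35.6%, and that of fold 1.54 at or above 34.4%, 15.3% and 5.37%.

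**Figure D4:**
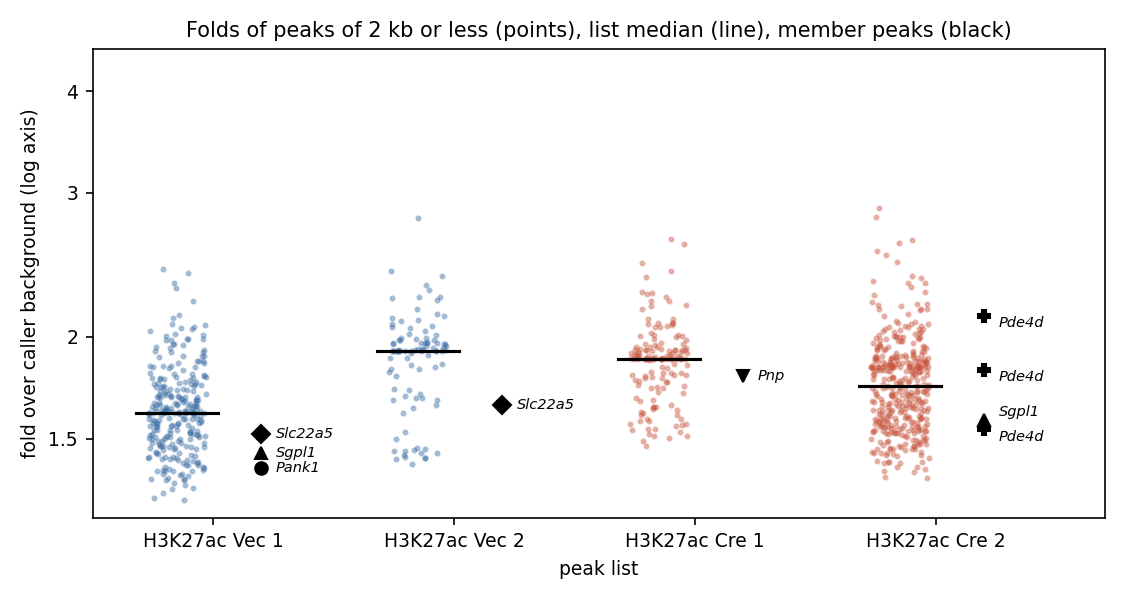
Fold of each peak against the caller's background (log axis) for H3K27ac peaks of 2 kb or less in each list (coloured points, blue Vec, red Cre), with the list's median as a line and the peaks of 2 kb or less at the 6 genes in black. The *Pank1* peak, at 1.38, and the *Sgpl1* peak, at 1.44, of Vec replicate 1 sit below the lowest point of Cre replicate 1, at 1.47.

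*Pfkp*, the platelet-type phosphofructokinase (gene ID 56421, chr13:6579874-6649060, minus strand, 69.2 kb), had a peak in Cre replicate 1 only, at 6607301-6610167 (2867 bp, fold 1.48, −log10 q 1.84). It lay 38.6 to 41.5 kb downstream of the start and within the gene. Whether it falls in an exon or an intron was not analysed here. The nearest peak in the other lists was 63.5 kb away in Vec replicate 1, 65.2 kb in Vec replicate 2 and 65.8 kb in Cre replicate 2. Cre replicates 1 and 2 therefore differed at this gene.

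*Pnp*, the purine nucleoside phosphorylase (gene ID 18950, chr14:50944303-50953412, plus strand, 9.11 kb), had a peak past its 3′ end in 3 lists. In Vec replicate 1 it spanned 50955705-50958036 (2332 bp, fold 1.64, −log10 q 4.93) and began 2.29 kb beyond the gene. In Cre replicate 1 it spanned 50956155-50957357 (1203 bp, fold 1.79, −log10 q 2.95) and began 2.74 kb beyond. In Cre replicate 2 it spanned 50950645-50957859 (7.21 kb, fold 1.83, −log10 q 3.3) and reached 2768 bp into the gene, 30.4% of its length. The Cre replicate 1 peak lay wholly within both others. All 3 overlapped *Pnp2* (gene ID 667034, 50956141-50964751), by 1896, 1203 and 1719 bp, and in Vec replicate 1 and Cre replicate 1 *Pnp2* was the nearer gene. *Pnp2* is a tandem copy of *Pnp* of very similar sequence, and how reads were placed between the copies was not examined here. Vec replicate 2 had no peak nearer than 0.632 Mb. With a peak in 1 of 2 Vec lists and in both Cre lists, the groups were not separated.

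**Figure D5:**
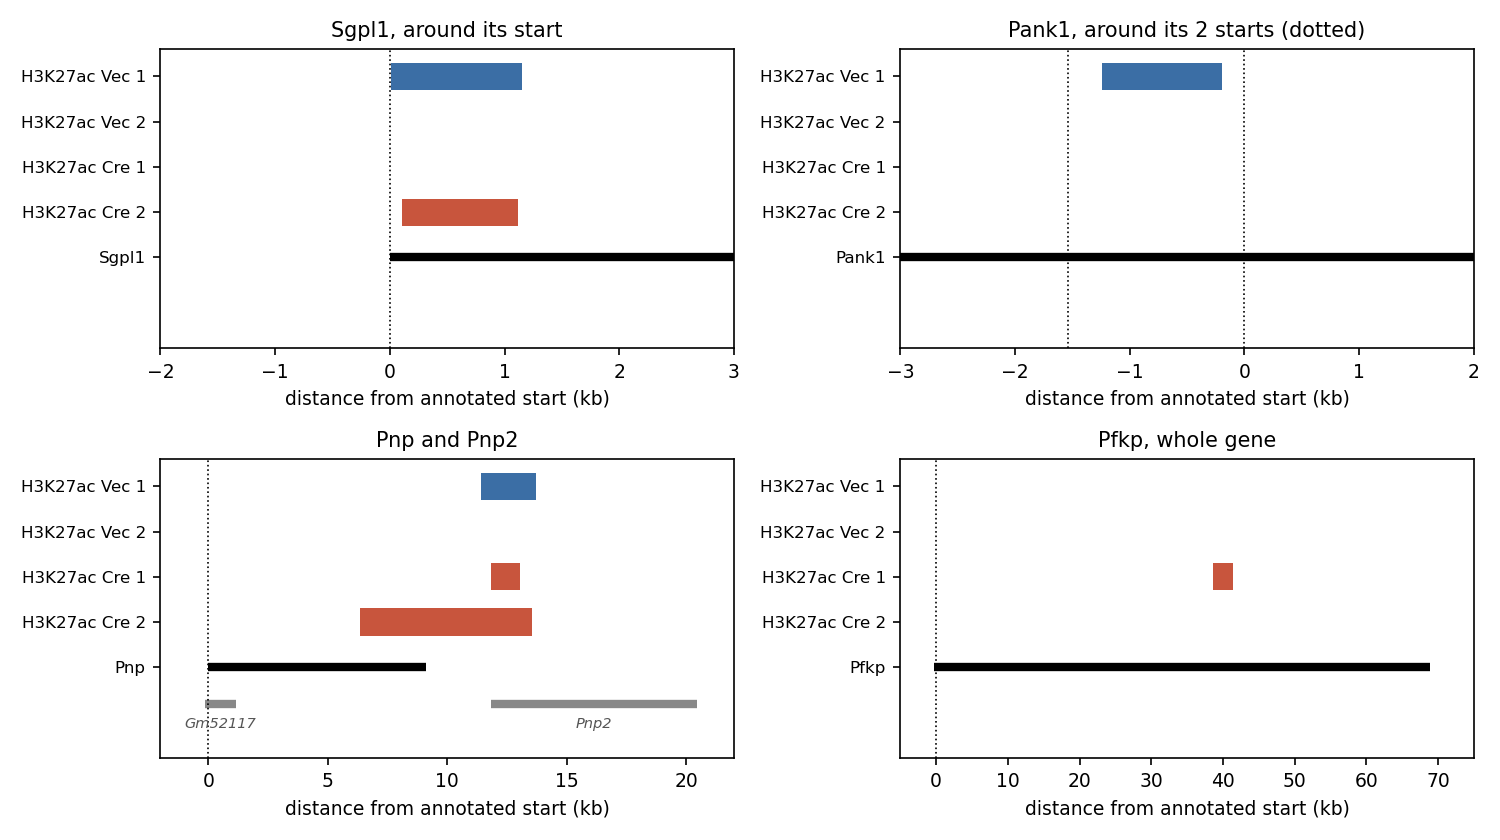
H3K27ac peaks at *Sgpl1*, *Pank1*, *Pnp* and *Pfkp*, with distance from the annotated start in kb on the x axis (for *Pank1*, from start 2), transcription to the right, and 1 row per list (blue Vec, red Cre). Black bars are the genes, grey bars neighbouring genes and dotted lines annotated starts. *Sgpl1* peaks begin 14 and 109 bp after the start, and the *Pank1* peak lies between the starts shown. The *Pnp* peaks overlap *Pnp2*, and the *Pfkp* peak lies 38.6 to 41.5 kb into the gene.

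*Pde4d*, the cyclic AMP phosphodiesterase (gene ID 238871, chr13:108654177-109955969, plus strand), spans 1.3 Mb and is longer than 99.9% of protein-coding genes. Its 3 peaks were all in Cre replicate 2. Their distances are to the only *Pde4d* start among the promoter windows used, at the first base of the gene. Starts further inside the gene were not examined. The peak at 109440568-109441597 (1030 bp, fold 2.12, −log10 q 2.86) lay 786 kb from the annotated start and contained both annotated starts of *Gm32703*, a long noncoding RNA on the opposite strand (chr13:109425166-109441011), whose name was looked up after the peak was seen. The peak at 109652218-109653287 (1070 bp, fold 1.82, −log10 q 2.66) lay 998 kb from the start, and that at 109822042-109823140 (1099 bp, fold 1.54, −log10 q 2.52) lay 1170 kb from it. The 3 lists without a peak had their nearest at 0.142 Mb in Vec replicate 1, 8.3 Mb in Vec replicate 2 and 8.31 Mb in Cre replicate 1. Of the 59 protein-coding genes of 1 Mb or more, 1 (1.69%) had a peak within 10 kb in each of the other 3 H3K27ac lists and 4 (6.78%) in Cre replicate 2, against 6.93%, 5.6%, 5.8% and 7.19% of all protein-coding genes in Vec replicates 1 and 2 and Cre replicates 1 and 2. The 4 in Cre replicate 2 include *Pde4d* itself, which was chosen for its peaks.

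The pathways of the 6 genes were examined through 206 further genes on 6 lists. In the H3K27ac lists 3 and 1 of them had a peak in Vec (1.46% and 0.485%) and 2 and 6 in Cre (0.971% and 2.91%). Of all protein-coding genes, 6.93% and 5.6% had one in the Vec lists and 5.8% and 7.19% in the Cre lists. The shares of the 206 genes are lowered by leaving out the 6 genes, which were chosen for their peaks. With the 6 genes, the counts were 7 and 2 of 212 in Vec and 5 and 10 of 212 in Cre. The shares of the 206 genes are also raised by *Slc22a21* and *Pnp2*, held through the same peaks as *Slc22a5* and *Pnp*. With those peaks left out, a step added after the data were seen, the counts were 1 and 0 in Vec and 0 and 4 in Cre. Because of the shared peaks the difference between Cre and Vec is given without a test over all 206 genes. It was 2.0 genes on average, 0.0 without Cre replicate 2, 1.0 when only peaks overlapping a gene counted and 4.0 with a window of 50 kb. With the shared peaks left out it was 1.5 (exact permutation test, two-sided, p = 1.000, n = 2 per group, where the smallest p possible is 0.333). No arrangement of these counts gives a smaller absolute difference, and the lists were chosen with earlier results known, so that p-value carries no information. The difference rested on Cre replicate 2, since Cre replicate 1 had 0 genes. Across the 4 H3K27ac lists 6 of the 206 had a peak, or 12 of 212 (5.66%) with the 6 chosen genes, and neither share is a test against the 8.65% of all protein-coding genes. In the EBF2 lists the counts were 1 and 0 in Vec and 0 and 0 in Cre, and the gene was *Slc22a21* (difference −0.5, exact permutation test, two-sided, p = 1.000, n = 2 per group). With these counts every arrangement gives the same absolute difference, so that p-value was fixed in advance and carries no information. The shares over all protein-coding genes were 5.12% and 3.85% in the EBF2 Vec lists and 5.17% and 4.95% in the EBF2 Cre lists.

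By pathway, 2 of 42 other purine genes had an H3K27ac peak. *Gmps*, the synthetase that makes GMP, had one just inside its lower-coordinate end in Vec replicate 1 (chr3:63963761-63964738, fold 1.86, −log10 q 7.5) and in Cre replicate 2 (chr3:63963861-63964781, fold 1.88, −log10 q 3.49), the same pair of lists that held *Sgpl1*, and the other was *Pnp2*. Of 14 other carnitine genes only *Slc22a21* had a peak, through the block it shares with *Slc22a5*. The remaining genes had a peak in Cre replicate 2 alone and are named, after their values were seen, because they were so few. They were 1 of 17 other coenzyme A genes, *Aasdhppt*, which transfers the phosphopantetheine arm of coenzyme A to carrier proteins (918 bp, fold 1.79), and 1 of 37 other glycolysis genes, *Pfkfb4*, which sets the level of an activator of phosphofructokinase (6.39 kb from the gene). The last was 1 of 47 other cyclic AMP genes, *Crem*, a transcriptional modulator of the cyclic AMP response (936 bp, fold 1.87). The *Pfkfb4* peak lay outside that gene, and whether another gene was nearer to it was not examined. None of 49 other sphingolipid genes had an H3K27ac peak in any of the 4 lists. Over all protein-coding genes, 8.65% had one in any of the 4 lists and 7.19% in Cre replicate 2. The pathway counts are small and were not tested against these shares.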

How the data were processed

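Per the labels, reads were handled with bcl2fastq 2.17, Trimmomatic 0.33, HISAT2 2.2.1 and MACS2 2.2.7 on mm10, as listed in the submitters' processing notes. Control library, duplicate handling and caller settings are not given in the sources used here. The authors called peaks on each library separately and deposited 1 list per library, broad for H3K27ac (values are means over a region) and narrow for EBF2. The deposited values are a score, a fold (ratio) over the background of the caller, and −log10 of the p-value and q-value. The tenth column of the EBF2 lists, the summit position, was not used.

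Genes, starts and promoter windows came from RefSeq tables of GRCm38.p6, the same assembly, and all 6 genes matched by symbol. A gene was held by a list if a peak overlapped it or lay within 10 kb. Distances were measured to the gene ends and the annotated start. Annotated starts are those of the promoter windows used, which need not hold every start of a gene. The 6 genes, the 212 genes of the metabolic lists and the 37 markers were chosen by hand with earlier results of these data known. Named beyond the 6 genes were list genes with peaks of 1 antibody in at least 2 lists, protein-coding genes nearer to a peak than the chosen gene, and markers with a peak. *Aasdhppt*, *Pfkfb4*, *Crem*, *Gm12220*, *Gm32703* and the genes of the closing section fall outside this rule and were chosen after their values were seen. Vec and Cre were compared by the exact permutation test over 6 arrangements, two-sided, for the metabolic lists, for H3K27ac with the peaks of the 6 genes left out, a change from the plan made after the data were seen. The same test had been planned for EBF2 at the 6 genes, where every count was 0, and is not reported. Background coverage was solved for each peak below a significance limit, from the deposited fold and p-value under a Poisson model. The value given for a library is the 10th percentile over those peaks and is approximate for broad peaks. Precision rests on 2 libraries per group. The peak search was tested on simulated lists, where 200 of 200 planted genes were found. Whether same-numbered replicates deviate together was checked: the correlation was −0.065 over 1894 genes for H3K27ac and 0.126 over 1257 for EBF2, and with 2 per group the numbers were not taken as pairs. Alternatives were windows of 0, 3 and 50 kb, a score at least the median, peaks of 10 kb or less, equal numbers of best-scoring peaks, a replicate block and leaving out each library. Software was Python 3.11.15, with pandas 2.3.3 and numpy 2.4.6 for the tables, scipy 1.17.1 for the tests and matplotlib 3.10.9 for the plots.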

Additional observations from a re-analysis of the deposited data

How the results depend on the processing

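The difference of 1.0 in the number of the 6 genes with an H3K27ac peak (Cre minus Vec) kept its sign or fell to 0.0 in 10 of 11 alternatives and reversed to −0.5 without Vec replicate 2. With each library left out in turn it ranged from −0.5 to 2.5, and with peaks of 10 kb or less it was 0.0. For EBF2 at the 6 genes the difference of 0.0 moved to −0.5 with a 50 kb window and was 0.0 with any 1 library left out. For the 206 other metabolic genes the H3K27ac difference of 2.0 ranged from 0.0 to 4.0 with a library left out, reaching 0.0 without Cre replicate 2, and it was 1.0 with a 0 bp window and 4.0 with a 50 kb window. It was 1.5 with the peaks of the 6 genes left out, an alternative added after the data were seen. Their EBF2 difference of −0.5 became 0.0 with a 0 bp window, with scores at least the median and without Vec replicate 1, and ranged from −1.0 to 0.0 with a library left out. The cause of these changes was not tested. With the replicate block the H3K27ac differences were 1.0 for the 6 genes and 2.0 for the metabolic genes, and the EBF2 differences were 0.0 and −0.5. In this balanced design a block cannot move a difference of group means, so these values do not show stability. With 2 libraries a group the exact permutation test used here could not reach 0.05, and its smallest p was 0.333. Without read counts, a peak missing from a list may lie under its lowest listed fold.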

Other observations

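Among the 32 protein-coding genes that, like *Slc22a5*, had an H3K27ac peak within 10 kb in all 4 lists and no EBF2 peak within 10 kb, 9 were held through peaks of 2 kb or less only. They were *Hdlbp* and *Septin2*, *Cfap99* and *Rnf4*, *Gspt1* and *LOC115488671*, *Caprin1*, *Pde12* and *Zbtb20*, chosen after their values were seen. The widest peak was 1.35 kb at *Hdlbp* and *Septin2*, 1.15 kb at *Cfap99* and *Rnf4*, 1.26 kb at *Gspt1* and *LOC115488671*, 1.68 kb at *Caprin1*, 1.21 kb at *Pde12* and 1.4 kb at *Zbtb20*. *Pde12*, which encodes a mitochondrial phosphodiesterase that trims poly(A) tails, has no part in cyclic AMP breakdown despite its symbol.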
